A study of Homo sapiens with 8 samples.

Results

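The comparison of osimertinib with no drug rests on 4 of the 8 libraries of a genome-wide CRISPR knockout screen, chosen by their labels. In 2 of them, Cas9-expressing PC9 cells had been kept for 72 h in 0.1 µM osimertinib, and in the other 2 the cells were untreated, which the labels also call DMSO, the solvent of the drugs, and were collected after the same 72 h. PC9 is a non-small cell lung cancer line with an activating mutation of the epidermal growth factor receptor (EGFR). Cells of every group had been infected with TKOv3, a pooled library with up to 4 single guide RNAs (sgRNAs) for each human gene, and selected with puromycin before any drug was added. The remaining libraries, 2 from cells harvested when the drugs were added (T0) and 2 from cells given 10 µM erlotinib for 72 h, served as references and helped to estimate the spread between libraries. All values thus come from 1 cell line that carries Cas9. Per the methods, cultures without drug were split 1 day into the treatment, and live cells alone were collected at the end, so dead cells were not sampled.

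Osimertinib is a covalent inhibitor that occupies the ATP pocket of EGFR and favours mutant forms of the receptor. EGFR passes its signal through adaptor proteins to the RAS and ERK kinase cascade and to PI3K, AKT and mTOR, on which EGFR-mutant lung cancer cells depend for division and survival. Loss of that signal is known to slow division and to release pro-apoptotic BCL-2 proteins, which open the mitochondrial outer membrane and start the caspase cascade. In a pooled screen the share of reads from an sgRNA stands for the share of cells without its target gene. Knockouts that help cells through the treatment therefore become more frequent than in the untreated culture, and those that harm cells become rarer. Per the paper, a knockout that divides slowly without drug can also gain in share under it, with its drug response unchanged. Which of these lay behind a rise was not tested. Slower division and more death give the same drop in reads and cannot be told apart here.

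Totals of the 4 libraries ran from 34894824 to 38116068 reads, and 235 to 262 of the sgRNAs had no read. Log2 abundance is given for each gene as the median of its sgRNAs, relative to the non-targeting sgRNAs of that library and to the mean of T0. The L2FC is the mean of both osimertinib libraries minus the mean of both untreated ones, printed ± its SE from limma, with n = 2 libraries per group throughout and p-values adjusted by Benjamini-Hochberg over all 17761 genes. Counts of the 2 osimertinib libraries varied beyond sampling noise, at a chi-square of 5.18 per degree of freedom, against 3.51 for untreated and 2.71 for T0. An L2FC computed from the libraries numbered 1 correlated with that from the libraries numbered 2 at r = 0.546 across genes, which are not independent replicates. The sources call the replicates biological but do not say whether cultures were kept apart since infection. The p-values therefore rest on a spread between libraries that may be technical. That spread was pooled over all 4 groups and drawn largely from other genes (4 residual and 33.6 prior degrees of freedom). Because the osimertinib libraries varied most, it may be too small for their group. Reads were not corrected for PCR copies, because these carried no molecular identifiers.

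Knockouts of 1165 genes rose under osimertinib (6.56% of the genes tested) and those of 966 fell (5.44%). Counts of called members in the gene lists below are to be read against these shares. Among single sgRNAs, tested with edgeR, 1626 of 67531 rose (2.41%) and 1570 fell (2.32%), while 2 of the 138 non-targeting sgRNAs rose and none fell. The L2FC of the called genes was mostly small, with a median of 0.27 for the genes that rose and -0.28 for those that fell, and an absolute L2FC over 0.5 was reached by 74 and 97 of them. Both untreated libraries lay apart from both osimertinib libraries for every called gene, as they did for 9140 of the 17761 genes tested. In 915 of the genes that rose and 775 of those that fell, all sgRNAs moved the same way, against 4916 of all genes tested. Most genes lay slightly below T0 on this scale, with a median of -0.164 in untreated cells and -0.153 under osimertinib, and 15539 of the 17761 were below it under osimertinib, so a value near these medians is that of the typical gene. Of the knockouts that rose, 627 were above T0 under osimertinib and 538 below, and all 966 that fell were below. Left out in turn, untreated library 1 took the counts to 591 and 445 and untreated library 2 to 622 and 618. Without osimertinib library 1 they were 964 and 746, and without osimertinib library 2, 884 and 873. In these fits the remaining library of the group is assumed to vary like those of other groups. Genes were named by the rule given with the processing, and not all of them are printed. For a named gene whose L2FC is printed, another way of computing the gene value sometimes ended the call. Such values, and those moved by over 1.5 times, are given with the gene. Without centring means that the median was taken over the log2 levels of the sgRNAs themselves, without the subtraction of each sgRNA's own mean.

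**Figure D1:**
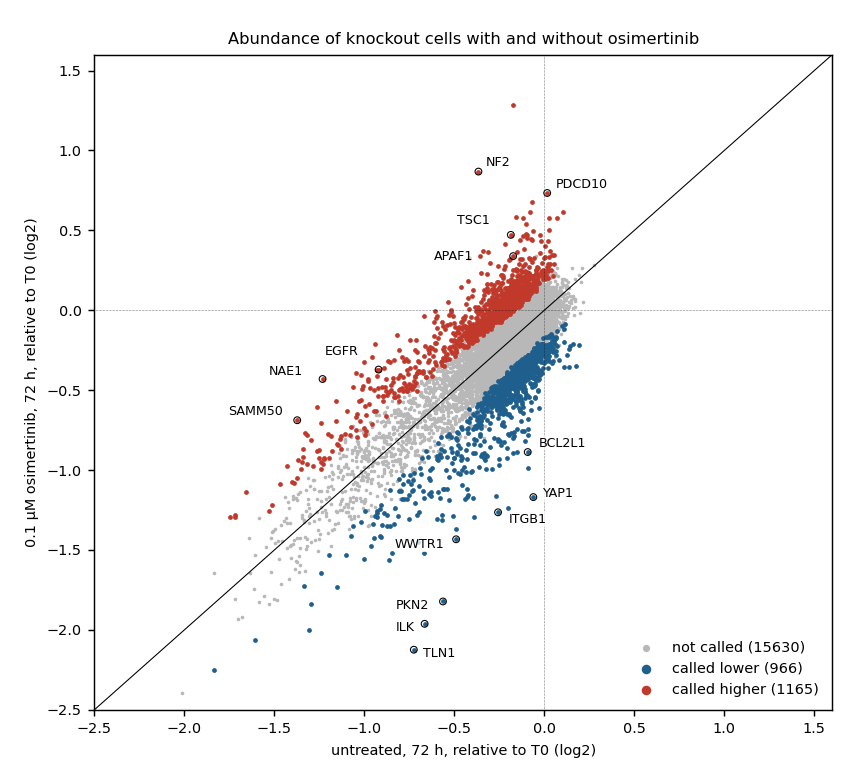
Each point is a gene, placed by the log2 abundance of its knockout relative to T0 in untreated cells (horizontal axis) and in 0.1 µM osimertinib (vertical axis), as means of 2 libraries. Points above the diagonal rose under osimertinib (1165 called, red) and those below fell (966 called, blue). NF2 and PDCD10 lie above 0 on the vertical axis, EGFR and NAE1 lie above the diagonal but below 0, and TLN1, ILK and YAP1 lie far below the diagonal.

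EGFR itself was lost from untreated cells and less so under the drug that targets it. The log2 abundance of EGFR knockouts was -0.96 and -0.88 in the untreated libraries and -0.44 and -0.30 in the osimertinib libraries, and the groups did not overlap. The difference of 0.55 ± 0.12 passed the test (adjusted p = 0.00127), and all 4 sgRNAs moved up, 1 of them past the guide test. Of the 10 tested EGFR family receptors and ligands, 2 rose and 1 fell. The ligand TGFA rose (L2FC 0.21 ± 0.06), and ERBB2, the partner receptor without a known ligand, fell (L2FC -0.27 ± 0.09). Both calls were fragile. TGFA was called only without osimertinib library 2, and lost its call without untreated library 1 (0.23), untreated library 2 (0.18) or osimertinib library 1 (0.18). ERBB2 was called in none of the fits that left out a library, with values of -0.33 and -0.16 without untreated library 1 or 2 and -0.26 and -0.25 without osimertinib library 1 or 2. It was not called without the filter on low sgRNAs (-0.12), without centring (-0.06), by the empirical test of the methods (-0.20) or from the 4 libraries alone (-0.26), and TGFA was not called without centring (0.22) or by the empirical test (0.25).

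The adaptors that dock on active receptors split. Of the 9 tested, 2 rose and 3 fell, with a median L2FC of -0.06 against 0.01 over all genes, and the counts were the same when any of the 4 libraries was left out. SHC1, which links EGFR to the RAS pathway, was at -0.31 and -0.26 without drug and 0.10 and 0.02 under osimertinib (L2FC 0.34 ± 0.07, adjusted p = 0.00105). GAB1, a docking protein for PI3K and SHP2, likewise rose (L2FC 0.27 ± 0.07). The CRK adaptors, which couple to RAC and RAP exchange factors, went the other way. CRKL knockouts stood at -0.28 and -0.39 without drug and -1.02 and -0.84 with it (L2FC -0.59 ± 0.10, adjusted p = 8.52e-05). CRK had a nearly equal L2FC of -0.59 ± 0.08, and GAB2, a relative of GAB1, fell by less (L2FC -0.30 ± 0.07). SHC1 was not called without centring (0.18, adjusted p = 0.227), nor GAB1 with edgeR on summed counts (0.12, adjusted p = 0.133).

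Among 25 suppressors of the RAS-MAPK pathway, 7 rose and 1 fell, with a median L2FC of 0.12. CIC, a repressor of ERK target genes, was -0.34 and -0.17 in untreated cells and 0.10 and 0.18 under osimertinib (L2FC 0.39 ± 0.06, adjusted p = 4.01e-05). SPRED2, which brings neurofibromin to the membrane, had an L2FC of 0.34 ± 0.07. NF1 encodes neurofibromin, a RAS GTPase-activating protein, and its knockouts rose by 0.34 ± 0.08, a call that ended without untreated library 2 (0.27, adjusted p = 0.0634). RASA1, a further RAS GTPase-activating protein, rose by 0.41 ± 0.11 and was called only when osimertinib library 1 was left out, with 0.40 without either untreated library and 0.25 without osimertinib library 2. The member that fell was ERRFI1, a feedback inhibitor that binds the EGFR kinase itself, from 0.02 and -0.19 to -0.49 and -0.59 (L2FC -0.46 ± 0.07, adjusted p = 7.54e-06). The number of suppressors that rose dropped to 5, 3, 6 and 5 when untreated library 1, untreated library 2, osimertinib library 1 or osimertinib library 2 was left out. CIC had larger values without the filter on low sgRNAs (0.66), without centring (0.76) and with edgeR on summed counts (0.59), whereas NF1 (0.29) and RASA1 (0.17) were not called without centring. On the activating side, 1 of 14 members of the RAS, RAF, MEK and ERK list rose (7.14%) and 2 fell (14.3%). Over all genes, 6.56% rose and 5.44% fell. The ERK kinase MAPK3 rose (L2FC 0.27 ± 0.06), and SHOC2, a scaffold that activates RAF, fell (L2FC -0.20 ± 0.06) but lost its call without untreated library 1 (-0.22), untreated library 2 (-0.17) or osimertinib library 2 (-0.17). Neither was called without centring (0.20 for MAPK3 and -0.20 for SHOC2), and SHOC2 was not called by the empirical test (-0.21).

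PI3K makes the membrane lipid that recruits PDK1 and AKT. None of the 10 members of the PI3K, PDK1 and AKT list rose and 4 fell, with a median L2FC of -0.19, ILK, described with the integrins, among them. PIK3CB, a catalytic PI3K subunit, dropped from -0.12 and -0.07 to -0.76 and -0.60 (L2FC -0.59 ± 0.08, adjusted p = 2.72e-06). PDPK1 (PDK1), the kinase that activates AKT, was already depleted in untreated cells at -0.67 and -0.74 and reached -1.18 and -1.39 under osimertinib (L2FC -0.58 ± 0.10). PIK3CD fell by a smaller amount (L2FC -0.20 ± 0.07) and was not called when any single library was left out, with values between -0.22 and -0.17, nor by the empirical test (-0.17) or from the 4 libraries alone (-0.18). PIK3CA, the catalytic subunit most often mutated in cancer, did not pass the test, and its osimertinib libraries lay far apart at -0.72 and -0.37 on either side of the untreated values of -0.39 and -0.45 (L2FC -0.12 ± 0.08, adjusted p = 0.358). Without osimertinib library 2 its value was -0.30 and was called, and without osimertinib library 1 it was 0.02.

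The kinase mTOR works in complex 1, which drives protein synthesis, and in complex 2, which phosphorylates AKT. Of 8 tested subunits and effectors of both mTOR complexes, none rose and 3 fell. RICTOR, the defining subunit of complex 2, was at -0.29 and -0.36 in untreated cells and -1.05 and -0.94 under osimertinib (L2FC -0.67 ± 0.09, adjusted p = 4.14e-07). MAPKAP1 (SIN1), another subunit of complex 2, fell as well (L2FC -0.46 ± 0.08). MLST8, shared by both complexes, fell by -0.43 ± 0.11 and lost the call without untreated library 1 (-0.41, adjusted p = 0.0602) or without centring (-0.31, adjusted p = 0.145). MTOR itself was strongly depleted in both arms, at -0.99 and -1.12 and -0.89 and -0.87, and did not pass the test (L2FC 0.18 ± 0.09, adjusted p = 0.216). Of the 21 suppressors of the pathway, 3 rose and 1 fell, with the same counts without any of the 4 libraries. TSC1, which with TSC2 forms the complex that turns off RHEB and so mTOR complex 1, rose from -0.21 and -0.17 to 0.50 and 0.45 (L2FC 0.66 ± 0.06, adjusted p = 3.35e-10). TSC2 moved with it (L2FC 0.58 ± 0.06). STK11 (LKB1), the kinase that activates AMPK, fell (L2FC -0.56 ± 0.07, adjusted p = 1.22e-07). Knockouts of the Rag GTPases and Ragulator, which bring mTOR complex 1 to the lysosome, included 4 that rose and 1 that fell among 12, led by RRAGC at 0.33 ± 0.07. Without untreated library 1, untreated library 2 or osimertinib library 2 only 1, 1 and 2 of these rose, and none fell without untreated library 1 or osimertinib library 2.

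**Figure D2:**
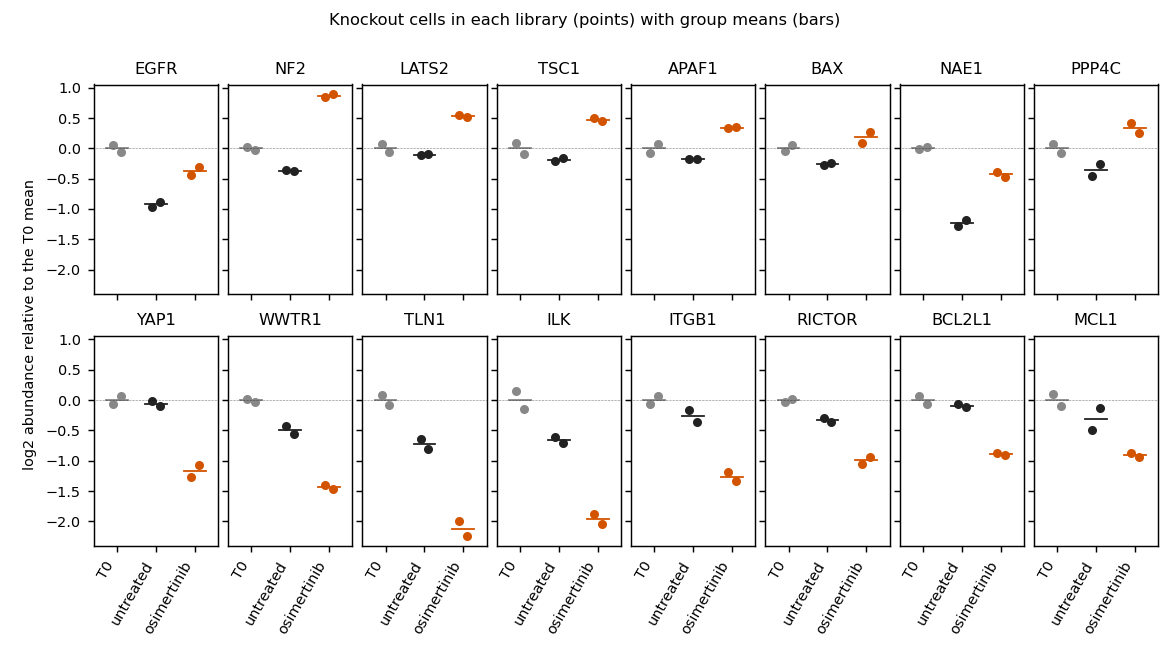
Log2 abundance of the knockout of 16 genes relative to the T0 mean in each of the 2 libraries of T0, untreated and osimertinib (points), with group means as bars. NF2, LATS2, TSC1, APAF1, BAX and PPP4C lie above 0 under osimertinib, EGFR and NAE1 rise but stay below 0, and YAP1, TLN1, ILK, ITGB1 and BCL2L1 lie below both untreated libraries.

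Genes of the mitochondrial route to apoptosis were among those called. Of 21 tested promoters of apoptosis, 8 rose and 1 fell, with a median L2FC of 0.15. APAF1, the scaffold of the apoptosome, was at -0.17 and -0.18 in untreated cells and 0.33 and 0.34 under osimertinib, and all 4 sgRNAs were called (L2FC 0.51 ± 0.06, adjusted p = 2.67e-07). CASP9, the initiator caspase that APAF1 activates, followed with -0.10 and -0.11 and 0.31 and 0.27 (L2FC 0.40 ± 0.06, adjusted p = 1.83e-06). BAX, which forms pores in the mitochondrial outer membrane, went from -0.28 and -0.24 to 0.09 and 0.27 (L2FC 0.44 ± 0.06, adjusted p = 3.08e-06). All 3 were above T0 with drug and within 0.3 of it without. VDAC2, a channel that holds BAX and BAK at mitochondria, rose by 0.39 ± 0.09 and lost the call without untreated library 2 (0.28, adjusted p = 0.0986). BCL2L11 (BIM), a BH3-only activator controlled by ERK, rose by 0.22 ± 0.07 with none of its 4 sgRNAs called, and its value was 0.12 without untreated library 1 and 0.13 without osimertinib library 2, neither of them called, and it was not called without centring (0.21). The promoter that fell was FADD, the adaptor of death receptors, from -0.12 and -0.22 to -0.61 and -0.51 (L2FC -0.39 ± 0.09, adjusted p = 0.00185), which missed the threshold without untreated library 1 (-0.33, adjusted p = 0.0529). The count of promoters that rose was 5 without untreated library 2 and 6 to 9 without each other library.

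Among 10 inhibitors of apoptosis, 2 rose and 3 fell. BCL2L1 (BCL-XL), a BCL-2 protein that restrains BAX and BAK, was almost neutral in untreated cells at -0.07 and -0.12 and dropped to -0.86 and -0.91 under osimertinib, with all 4 sgRNAs called (L2FC -0.80 ± 0.08, adjusted p = 9.78e-09). MARCH5, a mitochondrial ubiquitin ligase that controls the turnover of BCL-2 family proteins, fell from -0.21 and -0.12 to -0.86 and -0.67 (L2FC -0.60 ± 0.07, adjusted p = 3.37e-07). MCL1, a short-lived relative of BCL-XL, had untreated libraries that lay apart at -0.50 and -0.14, both above the osimertinib values of -0.88 and -0.95 (L2FC -0.60 ± 0.11, adjusted p = 0.000204). Its value was -0.39 without untreated library 2, which ended the call (adjusted p = 0.0556), and the call was also lost without the filter on low sgRNAs (-0.29, adjusted p = 0.158). It was -0.34 with edgeR on summed counts and -1.12 without centring, and 1 of its 3 sgRNAs was called. BIRC2 and BIRC3, ubiquitin ligases of the TNF receptor complex, rose with an L2FC of 0.34 ± 0.08 and 0.19 ± 0.06. BIRC2 lost its call without untreated library 2 (0.30) or without centring (0.26). BIRC3 lost it without untreated library 2 (0.12) or osimertinib library 1 (0.09), by the empirical test (0.13) and from the 4 libraries alone (0.17), and was at 0.29 without osimertinib library 2.

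The Hippo pathway gave opposite changes on its 2 sides. Hippo kinases phosphorylate YAP and TAZ and keep these coactivators out of the nucleus, where they would work with TEAD transcription factors. Of 20 tested suppressors of YAP, 8 rose and none fell, with a median L2FC of 0.14. NF2 (merlin), which recruits the Hippo kinases to the membrane, changed from -0.36 and -0.37 in the untreated libraries to 0.84 and 0.90 under osimertinib, with all 4 sgRNAs called (L2FC 1.23 ± 0.06, adjusted p = 4.26e-19). LATS2, a kinase that phosphorylates YAP, rose from -0.10 and -0.10 to 0.56 and 0.52 (L2FC 0.64 ± 0.06, adjusted p = 1.51e-09). KIRREL, a membrane protein that binds the Hippo scaffold SAV1, had values of -0.09 and -0.04 and 0.42 and 0.46 (L2FC 0.51 ± 0.06). TAOK2, an upstream kinase, rose by 0.58 ± 0.08 (0.35 with edgeR on summed counts), and AMOTL2, an angiomotin that binds YAP, by 0.34 ± 0.07. Leaving out any of the 4 libraries kept 7 or 8 of the suppressors called higher.

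All 6 members of the YAP, TAZ and TEAD list had a negative L2FC, 5 of them called, with a median of -0.55. YAP1 knockouts were near their T0 level in untreated cells, at -0.02 and -0.10, and fell to -1.27 and -1.06 under osimertinib (L2FC -1.11 ± 0.09, adjusted p = 1.24e-11). WWTR1 (TAZ) was lost to some extent without drug at -0.42 and -0.56 and further with it at -1.39 and -1.47 (L2FC -0.94 ± 0.10, adjusted p = 1.15e-08). Of the TEAD factors, TEAD1 fell from -0.46 and -0.39 to -1.24 and -1.07 (L2FC -0.73 ± 0.08, adjusted p = 1.21e-08), and TEAD4 fell by less (L2FC -0.37 ± 0.06). TEAD3 had an L2FC of -0.25 ± 0.06 and lost its call without untreated library 2 (-0.25, adjusted p = 0.0511) or osimertinib library 1 (-0.20, adjusted p = 0.074), and without centring (-0.21, adjusted p = 0.103).

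STRIPAK is a phosphatase complex that dephosphorylates the Hippo kinases, and its 16 tested members did not move together, with 3 higher and 4 lower. PDCD10, a member that binds partner kinases of the complex, rose from -0.07 and 0.10 to 0.78 and 0.69 (L2FC 0.72 ± 0.06, adjusted p = 4.31e-11). MOB4, a core scaffold member, fell from -0.64 and -0.55 to -1.39 and -1.22 (L2FC -0.71 ± 0.09, adjusted p = 6.57e-07). With edgeR on summed counts its value was -0.30. SLMAP, which docks the phosphatase to the Hippo kinases, also fell (L2FC -0.62 ± 0.07). STRN4, a striatin, fell by -0.29 ± 0.07, a call lost without untreated library 2 (-0.20) or osimertinib library 2 (-0.16), and the catalytic subunit PPP2CA rose by 0.25 ± 0.07, a call lost without untreated library 1 (0.23) or osimertinib library 2 (0.25). The count of members that rose was 2, 2, 3 and 1 without untreated library 1, untreated library 2, osimertinib library 1 and osimertinib library 2, and that of members that fell was 3 each time.

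The genes with the most negative L2FC included the core of integrin adhesions, which tie the cytoskeleton to the matrix. Of 30 members of the integrin list, 11 fell and 1 rose, with a median L2FC of -0.12. TLN1 (talin), which binds and activates integrins, was depleted without drug at -0.65 and -0.80 and reached -1.998 and -2.25 under osimertinib (L2FC -1.40 ± 0.12, adjusted p = 4.21e-11), a 2.64-fold lower abundance. ILK, the pseudokinase that links integrins to actin through PINCH and parvin, went from -0.62 and -0.71 to -1.88 and -2.05 (L2FC -1.30 ± 0.11, adjusted p = 3.92e-11). ITGB1, the most widely shared beta integrin, fell from -0.16 and -0.35 to -1.19 and -1.34 with all 4 sgRNAs called (L2FC -1.01 ± 0.08, adjusted p = 1.24e-11). PTK2 (FAK), the tyrosine kinase of these adhesions, changed from -0.18 and -0.36 to -1.01 and -1.31 (L2FC -0.89 ± 0.08). TNS3, a tensin, fell by -0.74 ± 0.08. Named after their values were seen, the other members that fell were ITGA3 (-0.72), FERMT2 (-0.70), LIMS1 (-0.69), TNS4 (-0.25), PARVA (-0.25) and PXN (-0.24), and the one that rose was PTK2B (0.40), a close relative of PTK2. Between 8 and 10 members fell when any of the 4 libraries was left out, and 2 rose without untreated library 1.

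RAC1 and the WAVE complex, which drive branched actin at the cell edge, showed 5 lower and 2 higher genes among 17, with a median L2FC of -0.15. RAC1 itself fell from -0.54 and -0.80 to -1.48 and -1.56 (L2FC -0.85 ± 0.09, adjusted p = 1.15e-08), with 2 of its 3 sgRNAs called and a value of -0.50 with edgeR on summed counts. PKN2, a kinase of the protein kinase C-related family, was at -0.54 and -0.59 without drug and -1.68 and -1.97 with it (L2FC -1.26 ± 0.10, adjusted p = 1.98e-11). The WAVE subunits BRK1, CYFIP1 and NCKAP1 fell by similar amounts, with an L2FC of -0.61 ± 0.09, -0.61 ± 0.08 and -0.54 ± 0.12. All 5 genes were below T0 in both arms. The number that rose was 0 without untreated library 1, untreated library 2 or osimertinib library 1.

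**Figure D3:**
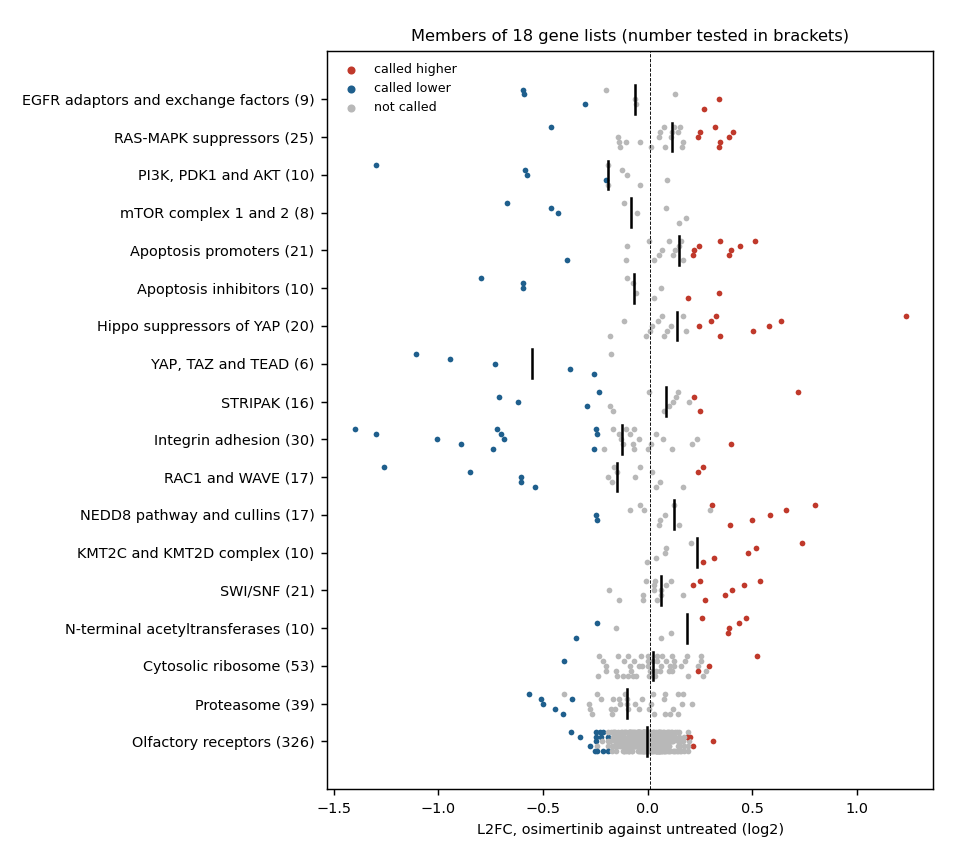
L2FC of osimertinib against untreated for every tested member of 18 gene lists (points; red called higher, blue called lower, grey not called), with the list median as a black bar and the median of all genes as a dashed line. Members of YAP, TAZ and TEAD lie to the left with a median of -0.55, the suppressors of YAP reach 1.23 on the right, and the 326 olfactory receptors centre on 0.

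Other receptor tyrosine kinases could carry signals around a blocked EGFR. Of 18 tested receptors and adaptors, 3 fell and 1 rose. FGFR1, a fibroblast growth factor receptor, fell from -0.08 and -0.15 to -0.84 and -0.67 (L2FC -0.64 ± 0.06, adjusted p = 1.38e-09), and FRS2, its main docking protein, fell with it (L2FC -0.48 ± 0.07, adjusted p = 2.51e-06). AXL, the receptor for GAS6, went from -0.16 and -0.18 to -0.72 and -0.88 (L2FC -0.62 ± 0.07, adjusted p = 8.36e-08). PDGFRA rose by 0.20 ± 0.07 and was called only without osimertinib library 1, with 0.26, 0.14 and 0.13 without untreated library 1, untreated library 2 and osimertinib library 2. It was not called without centring (0.29), by the empirical test (0.18) or from the 4 libraries alone (0.17).

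PLCG1 stands on another branch below EGFR, as the phospholipase that makes diacylglycerol for protein kinase C. Its knockouts rose from -0.16 and 0.01 to 0.47 and 0.42 with all 4 sgRNAs called (L2FC 0.52 ± 0.06, adjusted p = 1.08e-07). In the list of 26 genes of this branch and of NF-kappaB signalling, 4 rose and 5 fell. TRAF2 and TRAF3, which hold back the non-canonical NF-kappaB pathway, rose with an L2FC of 0.59 ± 0.09 and 0.41 ± 0.06. RELB, the transcription factor of that pathway, fell from -0.23 and -0.22 to -0.64 and -0.61 (L2FC -0.40 ± 0.08, adjusted p = 0.00103). TAB1, an activator of the kinase TAK1, rose by 0.49 ± 0.10, a call lost without untreated library 2 (0.35, adjusted p = 0.0523) or without centring (0.32, adjusted p = 0.127), and was at 0.32 by the empirical test. TRAF2 was at 0.39 without centring. Without untreated library 1 the number that fell was 2.

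Of 13 genes that drive entry into S phase, 2 fell and none rose. CDK4 fell from -0.24 and -0.21 to -0.59 and -0.50 (L2FC -0.32 ± 0.07, adjusted p = 0.00108). Its partner CCND1 (cyclin D1) had untreated libraries that differed widely, at -0.77 and -0.24, against -0.92 and -1.08 under osimertinib (L2FC -0.49 ± 0.12), and its value was -0.23 without untreated library 2, which ended the call, and -0.78 without untreated library 1. Without centring it was not called either (-0.36). Of 15 brakes on this step, 4 rose and none fell. RB1, the retinoblastoma protein that CDK4 inactivates, rose from -0.12 and -0.18 to 0.13 and 0.19 (L2FC 0.31 ± 0.06, adjusted p = 0.000329). FBXW7, the ubiquitin ligase subunit that degrades cyclin E and MYC, rose by 0.50 ± 0.08. The count of brakes that rose was 2 without untreated library 1, and without osimertinib library 2 a gene of the driving list rose. MYC itself did not pass the test, with -0.68 and -0.80 in the untreated libraries and -0.47 and -0.74 under osimertinib (L2FC 0.13 ± 0.17, adjusted p = 0.678), and its value was -0.07 with edgeR on summed counts.

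NEDD8 is a small protein whose attachment activates cullin ubiquitin ligases, and 6 of 17 genes of this system rose and 2 fell. NAE1, a subunit of the enzyme that activates NEDD8, was at -1.29 and -1.18 in untreated cells and -0.38 and -0.48 under osimertinib (L2FC 0.80 ± 0.07, adjusted p = 3.12e-10). CUL3 had values of -0.79 and -1.12 and -0.46 and -0.13 (L2FC 0.66 ± 0.11, adjusted p = 2.56e-05). The NEDD8 ligase DCUN1D1 and the conjugating enzyme UBE2F rose with an L2FC of 0.59 ± 0.06 and 0.50 ± 0.09. UBA3, the partner of NAE1, rose by 0.39 ± 0.08, a call lost without untreated library 2 (0.22) or without centring (0.26). Without untreated library 1, untreated library 2 or osimertinib library 2, 1, 0 and 1 members fell. KEAP1, the substrate receptor that works with CUL3 to degrade NRF2, rose from -0.34 and -0.32 to 0.08 and 0.17 (L2FC 0.45 ± 0.07, adjusted p = 4.77e-06). NFE2L2 (NRF2) fell from -0.65 and -0.50 to -0.96 and -0.87 (L2FC -0.34 ± 0.09), a call lost without untreated library 2 (-0.27, adjusted p = 0.142).

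Phosphatases of the PP4 and PP6 family gave 5 higher and 2 lower genes of 12. PPP4C, the catalytic subunit of PP4, changed sign against T0, from -0.46 and -0.26 to 0.41 and 0.26 (L2FC 0.70 ± 0.09, adjusted p = 2.25e-07), and its regulatory subunit SMEK2 rose by 0.41 ± 0.07. PPP6C, the catalytic subunit of PP6, was lost in untreated cells at -1.06 and -0.80 and less under osimertinib at -0.57 and -0.25 (L2FC 0.52 ± 0.08, adjusted p = 2.56e-05). Without centring its value was 0.81. ANKRD52, a subunit of PP6, rose by 0.32 ± 0.06 but was not called by the empirical test (0.28). PPP4R1 fell by -0.31 ± 0.08, a call lost without untreated library 1 (-0.24) or osimertinib library 1 (-0.20), and no member fell in those fits. It was not called without the filter on low sgRNAs (-0.20), with the mean over sgRNAs (-0.23) or with edgeR on summed counts (-0.17), and its value turned to 0.16 without centring. PPP2R4, which activates the related phosphatase PP2A, rose from -0.38 and -0.46 to 0.39 and 0.27 with all 4 sgRNAs called (L2FC 0.75 ± 0.07, adjusted p = 1.62e-10).

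Complexes that act on chromatin differed in their counts. Of 10 members of the KMT2C and KMT2D complex, which methylates histone H3 at enhancers, 5 rose and none fell, with a median L2FC of 0.24. PAXIP1 (PTIP) went from -0.18 and -0.13 to 0.51 and 0.65 (L2FC 0.74 ± 0.06, adjusted p = 1.24e-11), and PAGR1, its direct partner, from -0.17 and -0.14 to 0.34 and 0.38 (L2FC 0.52 ± 0.06, adjusted p = 3.65e-08). KMT2C, the methyltransferase, rose by 0.48 ± 0.07. In SWI/SNF, the remodeller that slides nucleosomes, 7 of 21 rose and none fell, with a median L2FC of 0.07. The ATPase SMARCA4 (BRG1) rose from -0.55 and -0.67 to -0.10 and -0.04 (L2FC 0.54 ± 0.08, adjusted p = 1.11e-05), and SMARCB1 and SMARCD1 rose by 0.46 ± 0.08 and 0.37 ± 0.06. Only 4 of the 21 rose without untreated library 1 or osimertinib library 1, and 1 fell without the latter. Cohesin, the ring that holds DNA loops, had 5 higher and 1 lower gene of 13. Its loader MAU2 rose from -0.67 and -0.55 to -0.03 and 0.02 (L2FC 0.60 ± 0.07, adjusted p = 5.63e-08), and the release factor WAPAL (WAPL) rose by 0.47 ± 0.09. No cohesin gene fell without untreated library 1, untreated library 2 or osimertinib library 1. PRC2, which places the repressive mark on histone H3, leaned the other way with 4 lower and 2 higher genes of 11. EED, a core subunit, fell by -0.42 ± 0.09, a call lost without centring (-0.31, adjusted p = 0.0551), whereas RBBP4, a histone chaperone that other complexes share, rose by 0.39 ± 0.07. Without osimertinib library 1, 2 fell and 1 rose, and without either untreated library 3 fell and 1 rose. Mediator, which joins transcription factors to RNA polymerase II, had 2 higher and 2 lower genes of 33. This was 6.06% each way, near the 6.56% and 5.44% of all genes. The coactivator SAGA had 3 higher and 2 lower genes of 19. Mediator had 1 lower gene without either untreated library or osimertinib library 1.

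N-terminal acetyltransferases cap new proteins at the ribosome. Of 10 tested, 5 rose and 2 fell. NAA35, a subunit of NatC, went from -0.70 and -0.74 to -0.30 and -0.20 (L2FC 0.47 ± 0.07, adjusted p = 3.99e-06), and its catalytic partner NAA30 rose by 0.38 ± 0.07. Without centring NAA35 was at 0.77, and with the mean over sgRNAs NAA30 was at 0.19. Another NatC subunit, NAA38, went the other way and fell by -0.34 ± 0.10. Its call was lost without untreated library 1 (-0.305), untreated library 2 (-0.368) or osimertinib library 1 (-0.235), and without centring (-0.35). NAA10, the catalytic subunit of NatA, was strongly depleted in untreated cells at -1.74 and -1.70 and had osimertinib values of -1.07 and -1.49 (L2FC 0.43 ± 0.09), so that it was not called without osimertinib library 1 (0.23, adjusted p = 0.108) and reached 0.66 without osimertinib library 2. No member fell without untreated library 1 or 2, and 1 fell without osimertinib library 1 or 2.

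Further genes with a large L2FC, except TAF10 of SAGA, belonged to none of these groups. ZNF689, a zinc finger protein, rose from -0.13 and -0.01 to 0.65 and 0.71 with all 4 sgRNAs called (L2FC 0.75 ± 0.06, adjusted p = 6.52e-11). RALGAPB, a subunit of the complex that turns off Ral GTPases, rose from -0.10 and -0.07 to 0.59 and 0.63 (L2FC 0.69 ± 0.07). KCTD5, a CUL3 adaptor that removes G protein beta-gamma subunits, rose from -0.07 and -0.16 to 0.58 and 0.57 (L2FC 0.69 ± 0.06). C16orf72, a partner of the ubiquitin ligase HUWE1, and AXIN1, the scaffold of the beta-catenin destruction complex, rose by 0.71 ± 0.06 and 0.56 ± 0.06. RPE, SAMM50 and TAF10, with roles in the pentose phosphate pathway, in the assembly of mitochondrial outer membrane proteins and in transcription, rose by 0.73 ± 0.07, 0.69 ± 0.08 and 0.68 ± 0.07 while staying below T0 in both arms. On the other side, EXT1, which polymerises heparan sulfate, was near T0 in untreated cells at 0.02 and -0.20 and fell to -0.96 and -1.005 (L2FC -0.89 ± 0.09, adjusted p = 9.06e-10). DDX39B, an RNA helicase of mRNA export, fell by -0.88 ± 0.14 (-0.58 without centring). RAN, the GTPase of nuclear transport, had an L2FC of -0.90 ± 0.20, beyond the -0.39, -0.51 and -0.88 of its 3 sgRNAs, none of them called. Its value was -0.59 with the mean over sgRNAs, -0.53 with edgeR on summed counts and -0.40 by the empirical test, and it was not called without centring (-0.76, adjusted p = 0.0518).

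Knockouts of the basic growth machinery were lost in both arms. The median abundance of the 53 tested cytosolic ribosome genes was -0.78 in untreated cells and -0.77 under osimertinib. Of them, 3 rose (5.66%) and 1 fell (1.89%), against 6.56% and 5.44% of all genes. For 51 DNA replication genes the medians were -0.57 and -0.61, with 5 higher and none lower. For 25 RNA polymerase subunits they were -0.89 and -0.77, with 6 higher and none lower. The proteasome had no member of 39 that rose and 6 that fell, with medians of -0.51 and -0.66. PSMA6 fell the most (L2FC -0.57 ± 0.16), with none of its 4 sgRNAs called. Its call was lost without untreated library 1 (-0.50), untreated library 2 (-0.63) or osimertinib library 2 (-0.51), and without centring (-0.58). PSMD2, a base subunit, fell from -0.63 and -0.65 to -1.20 and -1.10 (L2FC -0.51 ± 0.09, adjusted p = 6.62e-05). That call was lost without centring (-0.30, adjusted p = 0.072). Some of these counts changed when a library was left out. The RNA polymerases had 2 higher members without untreated library 1, untreated library 2 or osimertinib library 1, and 4 without osimertinib library 2. The proteasome had 2 lower members without untreated library 1 and 3 without untreated library 2 or osimertinib library 1. DNA replication had 2 higher members without untreated library 2, and the ribosome no lower member without either untreated library.

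Olfactory receptor genes, for which lung cancer cells have no known use, gave a measure of the background. Of 326 tested, 4 rose (1.23%) and 14 fell (4.29%), against 6.56% and 5.44% of all genes tested. Their share of falls was thus close to that of all genes. The receptors had a median L2FC of -0.004 and values from -0.37 to 0.32. None rose without untreated library 2, and 4 fell without untreated library 1.

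Erlotinib, a reversible inhibitor of EGFR, was given at 10 µM and osimertinib at 0.1 µM, so the compound and its dose cannot be told apart. Both drug groups share the untreated libraries, and were therefore set against each other directly. Knockouts of 97 genes (0.546%) were more frequent under osimertinib than under erlotinib and those of 186 (1.05%) were less frequent. Without either erlotinib library these counts fell to 14 and, for the less frequent, to 53 and 29 without erlotinib library 1 and 2. EIF2AK4 (GCN2) is the kinase that senses uncharged tRNA. Its knockouts stayed near T0 under osimertinib at -0.14 and -0.03, as without drug at -0.04 and -0.04, but rose to 0.77 and 0.89 under erlotinib (difference -0.92, adjusted p = 5.76e-12). GCN1L1, the ribosome-bound activator of GCN2, was below T0 without drug at -0.39 and -0.15 and under osimertinib at -0.38 and -0.38. Under erlotinib its knockouts were also above T0, at 0.34 and 0.55 (difference -0.82, adjusted p = 1.04e-08). Neither gene passed the test between osimertinib and untreated cells, with an L2FC of -0.04 ± 0.07 and -0.11 ± 0.08.

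Knockouts of TEAD1 were rarer under osimertinib than under erlotinib, where they had values of -0.73 and -0.47 (difference -0.56). NAA10 was lost further under osimertinib than under erlotinib, at -0.61 and -0.72 there (difference -0.62). PAXIP1 and ZNF689 were more frequent under osimertinib than under erlotinib, where their values were 0.11 and 0.18 and 0.20 and 0.27 (differences 0.43 and 0.44). Together with EIF2AK4 and GCN1L1, these 6 genes kept their calls without each of the libraries of both drugs, and the NAA10 difference was -0.40 without osimertinib library 2. BCL2L1 knockouts fell under osimertinib but were lower still under erlotinib at -1.36 and -1.24 (difference 0.41, adjusted p = 0.00574), a call lost without erlotinib library 1 (0.33, adjusted p = 0.139). For several knockouts with a large L2FC there was no call between the drugs. TLN1 was at -2.35 and -2.20 under erlotinib, ILK at -2.19 and -2.24, YAP1 at -1.07 and -1.04, APAF1 at 0.47 and 0.36 and NF2 at 0.69 and 0.64, with differences of 0.15, 0.25, -0.11, -0.08 and 0.20, respectively. The NF2 difference narrowly missed the threshold (adjusted p = 0.0513). EGFR stood at -0.50 and -0.45 under erlotinib (difference 0.11, adjusted p = 0.751).

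**Figure D4:**
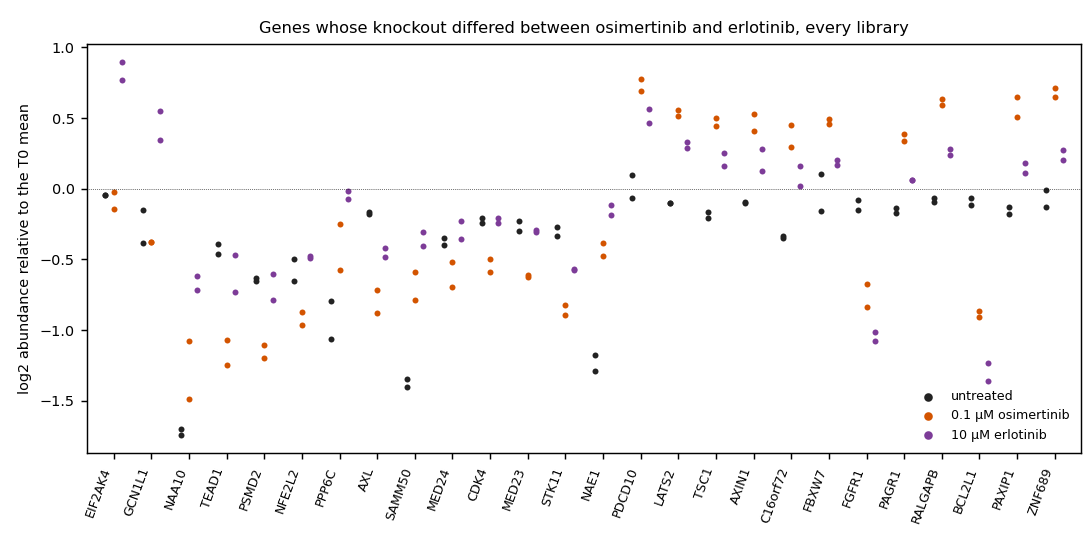
Log2 abundance relative to the T0 mean in each of the 2 libraries of untreated cells, 0.1 µM osimertinib and 10 µM erlotinib for the 26 named genes that differed between the drugs. EIF2AK4 and GCN1L1, at the left, lie above 0 in erlotinib alone, while TEAD1 is lowest in osimertinib and PAXIP1 and ZNF689, at the right, are highest in it.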

How the data were processed

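The authors deposited raw counts per sgRNA for each library, with no normalization: 71090 sgRNAs, 142 of them non-targeting, under 18053 gene names. Per the labels and methods, inserts were amplified from genomic DNA by 2 rounds of PCR without molecular identifiers, and sgRNAs were counted by aligning reads to TKOv3 at up to 1 mismatch. The methods name Bowtie2 and the submitters' processing notes Bowtie 1.3.1. Total counts were 32096281 to 39200466 reads per library, with medians of 445 to 549 per sgRNA. Of 50 names that a spreadsheet had turned into amounts of money, 49 were restored from the RefSeq gene table, and the 4 sgRNAs of the other were left out. Of the resulting names, 18016 of 18052 matched that table.

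Removing the 5% of sgRNAs with the smallest mean count (below 46 reads) left 67531, 138 of them non-targeting. Log2 CPM (TMM, prior count 1) was centred on each sgRNA's mean over libraries, the non-targeting median of the library was subtracted, and the median was taken over a gene's sgRNAs (at least 2). The 17761 genes were tested with limma 3.58.1 (lmFit, eBayes with trend) in R 4.3.3 on all 8 libraries in 4 groups (4 residual and 33.6 prior degrees of freedom), and single sgRNAs with the quasi-likelihood F-test of edgeR 4.0.16 on counts. All tests were two-sided with Benjamini-Hochberg adjustment and a threshold of 0.05. The steps were tested on simulated data.

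Genes were named by a rule: the 14 highest and 14 lowest called genes with at least 3 sgRNAs, all moving the same way, and libraries that did not overlap, EGFR and up to 5 called members of each list described, and genes known from the study. Of those, 4 genes are not reported here, and CYCS had no gene test because too few of its sgRNAs were kept. The comparison, the lists and the rule were chosen with earlier results of these data known. Alternatives were another scaling, reference, filter, prior count or collapse of sgRNAs, edgeR on summed counts, DESeq2 1.42.0 for sgRNAs, the empirical test of the methods, the 4 libraries alone, a replicate block, and leaving out each library. The additional arm with a higher dose of osimertinib was not analysed here.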

Additional observations from a re-analysis of the deposited data

Results flagged for a closer look

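The results below are named genes whose knockouts differed between osimertinib and erlotinib by the direct test of that difference (limma, adjusted p under 0.05), 26 in all. Values are log2 differences, osimertinib minus erlotinib, over 2 libraries each. The doses differed, so compound and dose cannot be told apart, and no explanation was tested.

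Less frequent under osimertinib were knockouts of EIF2AK4 (-0.92) and GCN1L1 (-0.82), of the acetyltransferase NAA10 (-0.62), of TEAD1 (-0.56) and the proteasome subunit PSMD2 (-0.45), and of NFE2L2 (-0.44). Smaller differences in this direction were seen for PPP6C (-0.37), AXL (-0.35), SAMM50 (-0.33), the Mediator subunits MED24 (-0.32) and MED23 (-0.32), CDK4 (-0.32), STK11 (-0.29) and NAE1 (-0.28). More frequent under osimertinib were knockouts of ZNF689 (0.44), PAXIP1 (0.43) and its partner PAGR1 (0.3), BCL2L1 (0.41), RALGAPB (0.35), FGFR1 (0.29), FBXW7 (0.29), C16orf72 (0.28), AXIN1 (0.26), TSC1 (0.26), LATS2 (0.23) and PDCD10 (0.22).

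EIF2AK4, GCN1L1, NAA10, TEAD1, PAXIP1 and ZNF689 kept the call without each library of both drugs, and the other 20 lost it without at least 1 of them.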

How the results depend on the processing

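Across all genes tested, 1165 rose and 966 fell. The counts stayed within 1.5 times of these under all alternatives except those given here. Without centring of sgRNAs 468 genes fell. Leaving out 1 library gave 591 to 964 genes that rose and 445 to 873 that fell, with the lowest values without untreated library 1. The comparison with erlotinib gave 19 higher and 79 lower genes without centring and 179 and 348 with edgeR on summed counts, and 14 to 88 and 29 to 243 when a library was left out. For single sgRNAs, DESeq2 called 1045 higher and 959 lower and the 4 libraries alone 855 and 807. Leaving out a library gave 588 to 1955 that rose and 561 to 1878 that fell. The empirical test of the methods called 922 genes higher and 942 lower, and edgeR on summed counts 1743 and 1282. The share of higher among called genes was 54.7% and lay between 49.2% and 63.1% under the alternatives.

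Of the 193 named and called genes, 105 were called without each of the 4 libraries. Not all of these 193 genes are printed above. Among the 193, PPP4R1 alone changed direction under an alternative, at 0.16 without centring of sgRNAs. Among named genes without a call, PIK3CA, EIF2AK4 and MYC changed sign under at least 1 alternative. Without centring 61 further calls were lost, and without untreated library 1, 63 were. The causes were not tested.

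The sources do not say whether equal replicate numbers mark paired libraries. Across genes, replicate differences of the groups correlated at -0.0035 to 0.0164, so no shared effect of the replicate number was seen. With the replicate block 1194 genes rose and 987 fell, 106 and 204 differed from erlotinib, and 1634 and 1591 sgRNAs were called, and all 193 named calls remained. With 2 libraries per group precision is limited. The smallest absolute L2FC that was called was 0.16, and a gene that was not called may still differ.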

Other observations

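The gene groups below were put together after the values had been seen, so their counts are a description without a test of the group. Calls are those of limma over all genes, of which 6.56% rose and 5.44% fell under osimertinib.

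De novo purine synthesis had all 6 of its enzymes higher, with a median L2FC of 0.44. ADSL was at -1.33 relative to T0 in untreated cells and -0.77 under osimertinib (L2FC 0.56 ± 0.11), and PAICS at -0.81 and -0.25 (0.56 ± 0.08), so both were below T0 in each arm. The count was 4 without untreated library 1. In the pentose phosphate pathway, which supplies the ribose for purines, 4 of 7 rose and 1 fell, among them RPE at 0.73 and RPIA at 0.50. PGLS was the member that fell (-0.29), and no member fell without untreated library 1, untreated library 2 or osimertinib library 2.

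Diphthamide is a modified residue of elongation factor eEF2, and 6 of the 7 genes that make it rose. DPH1 was the highest of them at 0.63 ± 0.06, above its T0 level under osimertinib (0.42) and below it without drug (-0.22). DPH5 and DPH2 rose by 0.61 and 0.52, and DPH3 did not pass the test (-0.12, adjusted p = 0.505). The count was 4 without either untreated library.

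Heparan sulfate synthesis had 9 of 18 genes lower and 2 higher. After EXT1 came EXTL3 (-0.65 ± 0.10), the enzyme that starts the chain, EXT2 (-0.58 ± 0.07), the partner of EXT1, and HS2ST1 (-0.49 ± 0.07), a sulfotransferase. The number that rose was 1, 0 and 0 without untreated library 1, untreated library 2 and osimertinib library 1.

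THO and TREX carry mRNA out of the nucleus, and 5 of 9 genes fell, with THOC2 at -0.71 and THOC7 at -0.70 beside DDX39B. In the CTLH ubiquitin ligase 6 of 12 fell and 1 rose, led by YPEL5 at -0.74 ± 0.12, UBE2H at -0.66 ± 0.08 and WDR26 at -0.64 ± 0.12. Leaving out untreated library 1 gave 3 that fell and none that rose, and leaving out osimertinib library 1 gave 4 that fell. RHOA (-0.78 ± 0.09) and its exchange factor TRIO (-0.65 ± 0.07) fell, whereas the RHOA effector kinases ROCK2 (0.59 ± 0.07) and ROCK1 (0.31 ± 0.08) rose. In that group of 13, 3 rose and 4 fell.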
